A study of Arabidopsis thaliana with 12 samples.

Results

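The AINTEGUMENTA-like genes of Arabidopsis thaliana described here are ANT, AIL1, AIL5, AIL6 and AIL7, taken by locus code as 5 of the 36917 genes in the count table. They encode transcription factors with a pair of AP2 domains. ANT and AIL6 are known to promote the initiation and growth of floral organs, and ANT is required for the integuments of the ovule. AIL6 and AIL7 are known to act with ANT in the shoot and flower meristem, AIL5 is known from flower, seed and seedling growth, and little is known of AIL1. In flower primordia ANT and AIL6 are known as targets of the auxin response factor MONOPTEROS.

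Expression was measured by RNA sequencing in mutants that lack FRUITFULL (FUL), a MADS-domain protein needed for growth of the fruit valves and active in the inflorescence meristem. The 12 libraries formed 4 groups of 3: ful-1 pistils, of the Ler ecotype; wild-type Ler pistils; ful-7 meristems, of the Col-0 ecotype; and wild-type Col-0 meristems. Pistil samples held pistils and siliques of floral stages 12 to 16, and meristem samples held dissected inflorescence meristems with their buds up to stage 3 or 4. Each sample pooled about 20 organs, and no treatment was given. The ful-7 allele is the SALK_033647 line. Each mutant was represented by 1 allele in 1 ecotype and 1 tissue, so tissue, ecotype and allele cannot be told apart between pistils and meristems.

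FUL itself had 8.87, 9.76 and 2.58 CPM (counts for each 1000000 of the library, scaled between libraries) in ful-1 pistils, against 104, 107 and 96.2 CPM in Ler pistils. It had 2.44, 1.71 and 3.29 CPM in ful-7 meristems, against 95.3, 107 and 153 CPM in Col-0 meristems. Library totals ran from 13191949 to 83606724 counts. The smallest, ful-1 pistil library 3, stood apart: its Spearman correlations with the other pistil libraries were 0.910 to 0.916, its plastid genes took 2.04% of counts against 0.118 to 0.393% in the other pistil libraries, and its 50 highest genes took 26.8% against 8.33 to 10.6%. The pistil tests and the test of the difference between tissues are given with and without it. Pistil markers summed to 496 to 749.9 CPM in ful-1 pistils, 335 to 372 in Ler pistils, 61.8 to 69.6 in ful-7 meristems and 54.0 to 65.9 in Col-0 meristems. Meristem and young bud markers summed to 55.2 to 71.8, 79.3 to 84.4, 368 to 397 and 397 to 494 CPM in the same groups. Among the markers, WUS and CLV3 were at 0 in all 3 ful-1 pistil libraries, STK and INO were under 1 CPM in the meristem groups, and CLV3 was under 1 CPM in the meristem groups as well. Against the direction of the sum, the pistil marker CRC averaged 7.14 CPM in Ler pistils and 17.9 CPM in Col-0 meristems. SPT averaged 21.9 and 25.8 CPM in those groups, and the other 5 pistil markers were higher in Ler pistils.

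The 5 genes lie on chromosomes 1, 4 and 5, given here in the TAIR10.1 assembly with its RefSeq annotation. ANT (AT4G37750) spans chr4:17739514-17742407 on the forward strand with an exonic length of 2154 bases and a protein of 555 residues. AIL1 (AT1G72570) spans chr1:27331381-27333698, forward, with 1248 exonic bases, no annotated UTR and 415 residues. AIL5 (AT5G57390) spans chr5:23252989-23256703, reverse, with 2490 exonic bases and 558 residues. AIL6 (AT5G10510) spans chr5:3315401-3320323, forward, with 3087 exonic bases, 7 transcript models and 604 residues. AIL7 (AT5G65510) spans chr5:26185593-26189571, forward, with 1945 exonic bases and 498 residues. AIL6 and AIL7 are the closest pair, with 77.8% identity over 1452 aligned coding bases. ANT and AIL1 follow at 59.0%, and the other pairs lie between 51.9% and 55.9%.

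All 5 genes carry a coding exon of only 9 bases, between coding exons of 83 and 89 bases, in 5 of the 7 AIL6 models and in every model of the other genes. Such an exon is rare: 84 of 27562 protein-coding genes, or 0.305%, hold one in their longest coding model, where that of AIL6 lacks it. The spliced coding sequence around it, read 5′ to 3′ on the coding strand, is shown because it is where all 5 genes can be laid side by side. Capitals mark the 9-base exon, with 30 bases of the neighbouring exons on either side.
ANT: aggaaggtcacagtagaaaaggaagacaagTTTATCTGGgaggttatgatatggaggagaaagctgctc
AIL1: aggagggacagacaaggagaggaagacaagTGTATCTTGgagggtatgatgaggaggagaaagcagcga
AIL5: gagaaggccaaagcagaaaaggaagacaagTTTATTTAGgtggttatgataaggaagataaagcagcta
AIL6: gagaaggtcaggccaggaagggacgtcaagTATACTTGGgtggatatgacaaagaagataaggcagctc
AIL7: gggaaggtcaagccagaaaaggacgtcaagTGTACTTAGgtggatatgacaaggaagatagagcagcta
Of these 69 bases, 56 are identical to ANT in AIL5, 54 in AIL1, 49 in AIL7 and 47 in AIL6. The exon itself lies at chr4:17741106-17741114 in ANT, chr1:27332550-27332558 in AIL1, chr5:23254975-23254983 in AIL5, chr5:3318813-3318821 in AIL6 and chr5:26188371-26188379 in AIL7.

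AIL6 and AIL7 also share sequence upstream of their annotated starts. The longest run common to both 250-base upstream windows is 17 bases, and of 27443 such windows in the genome only those 2 hold it. The other 9 pairs of these genes share runs of 7 to 11 bases. The surrounding 57 bases of each, on the forward strand and with the shared run in capitals, are identical at 42 positions.
AIL6: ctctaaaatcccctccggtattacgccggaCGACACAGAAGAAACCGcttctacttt
AIL7: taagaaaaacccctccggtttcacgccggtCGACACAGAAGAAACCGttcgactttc
The first lies at chr5:3315295-3315351, from -106 to -50 relative to the start of AIL6, and the second at chr5:26185390-26185446, from -203 to -147 relative to AIL7. The upstream windows were also searched on both strands for the CArG box, the motif MADS-domain proteins bind, and for the auxin response elements TGTCTC and TGTCGG, which cannot match at the same position. None of the 5 windows held a CArG box, which 2.52% of all windows held. TGTCTC was found in AIL1 and AIL7 (10.9% of all windows) and TGTCGG in AIL5 and AIL6 (4.16%).

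ANT had the highest level of the 5 in every group. ANT had 58.6, 53.8 and 34.2 CPM in ful-1 pistils, against 37.7, 48.9 and 34.9 CPM in Ler pistils. It had 112, 125 and 104 CPM in ful-7 meristems, against 106, 98.5 and 107 CPM in Col-0 meristems. Every meristem library was above every pistil library, while mutant and wild type overlapped within each tissue.

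AIL5 was the member whose level was most alike in the 4 groups. It had 8.40, 8.12 and 5.67 CPM in ful-1 pistils, against 8.60, 11.04 and 8.35 CPM in Ler pistils. In meristems it had 11.24, 10.03 and 10.05 CPM in ful-7, against 10.96, 10.46 and 9.80 CPM in Col-0. The groups overlapped in both tissues, and Ler pistil library 2 lay within the meristem range.

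AIL6 was lower in pistils than in meristems. It had 8.00, 6.94 and 4.02 CPM in ful-1 pistils, against 8.80, 9.45 and 8.63 CPM in Ler pistils. It had 22.8, 21.7 and 21.3 CPM in ful-7 meristems, against 23.6, 21.2 and 19.4 CPM in Col-0 meristems. All 3 ful-1 libraries were below all 3 Ler libraries, and the meristem groups overlapped. AIL6 shares 14.7% of its exonic length with AT5G10520 (RBK1) on the opposite strand, and the deposited counts did not separate strands: 42 of 43 opposite-strand pairs that overlap over at least 90% had counts within 10% of each other. RBK1 averaged 4.77 ± 0.811 CPM in ful-1 pistils, 4.21 ± 0.449 in Ler pistils, 10.8 ± 0.955 in ful-7 meristems and 9.91 ± 1.72 in Col-0 meristems (SD, n = 3 each), and its part in the AIL6 values was not tested.

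AIL7 was close to absent in pistils. Its raw counts were 6, 3 and 0 in ful-1 pistils and 11, 12 and 5 in Ler pistils, or 0.141, 0.0986 and 0 CPM against 0.355, 0.354 and 0.141 CPM. It had 10.3, 11.7 and 9.87 CPM in ful-7 meristems, against 8.54, 8.51 and 8.84 CPM in Col-0 meristems. Every ful-7 library was above every Col-0 library.

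AIL1 was near the limit of detection throughout. Its raw counts were 9, 18 and 0 in ful-1 pistils and 8, 0 and 3 in Ler pistils. In meristems they were 0, 0 and 0 in ful-7 and 1, 4 and 2 in Col-0. The 0 counts in ful-7 meristems, of 203375584 in all, allow a level of up to 0.0148 CPM before scaling, taking 3 counts as the limit. Such floors and the intervals below cover counting error only.

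**Figure D1:**
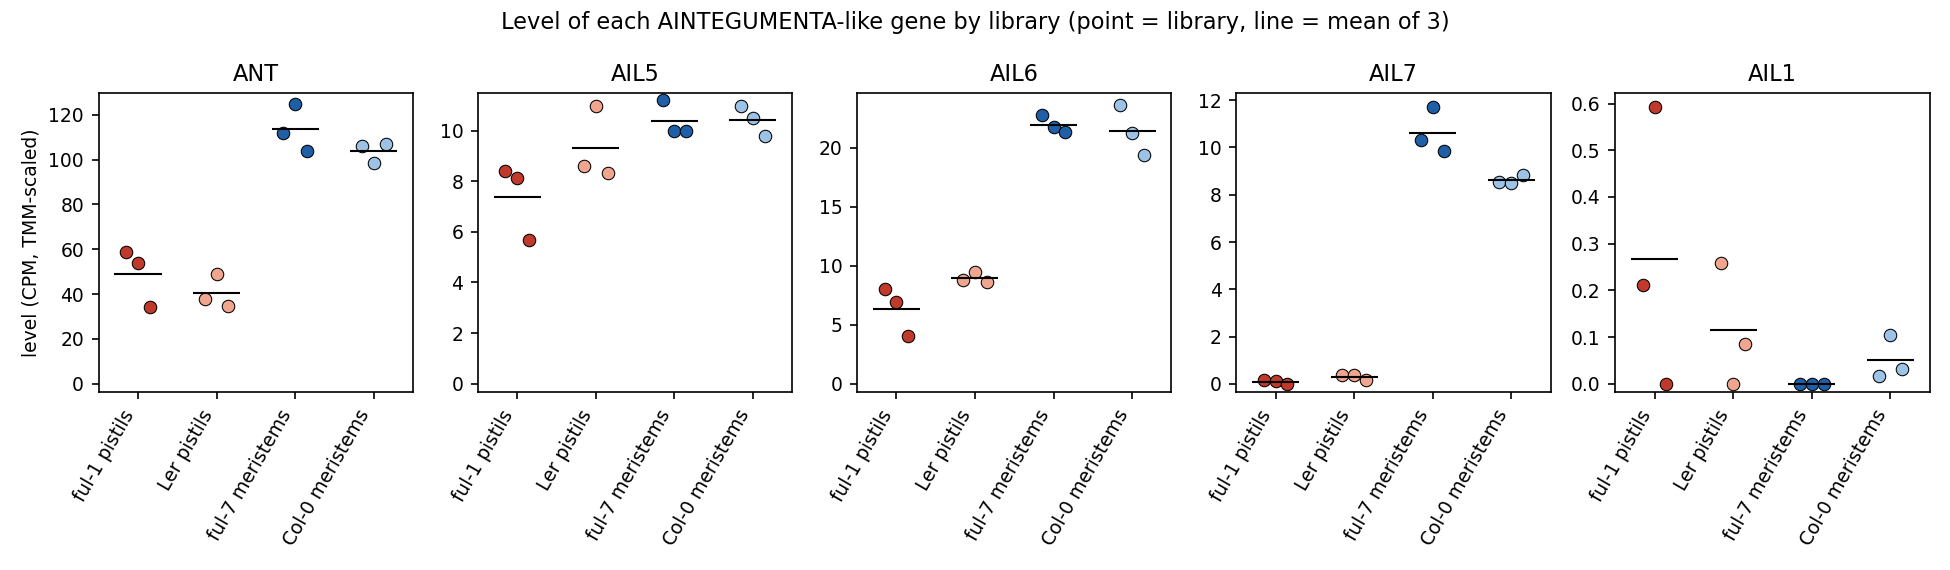
CPM of each AINTEGUMENTA-like gene (vertical axis, a separate scale for each panel) in the 12 libraries, by group, with 1 point for each library and a line at the group mean. ANT, AIL6 and AIL7 are higher in both meristem groups than in both pistil groups, AIL5 has ranges close to each other in all 4, and AIL1 stays under 1 CPM.

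Divided by exonic length, the levels could be ordered within each group. In ful-1 pistils ANT averaged 22.7 CPM per kb, AIL5 2.97, AIL6 2.05, AIL1 0.214 and AIL7 0.0410, with overlapping libraries for AIL5 and AIL6 and for AIL1 and AIL7. In Ler pistils the order was ANT 18.8, AIL5 3.75, AIL6 2.90, AIL7 0.146 and AIL1 0.0915 CPM per kb, where only AIL7 and AIL1 overlapped. ANT thus stood first and AIL5 second in both pistil groups. In ful-7 meristems the order was ANT 52.9, AIL6 7.10, AIL7 5.46, AIL5 4.19 and AIL1 0 CPM per kb, with no overlap between neighbours. In Col-0 meristems it was ANT 48.2, AIL6 6.94, AIL7 4.44, AIL5 4.18 and AIL1 0.0408 CPM per kb, where AIL7 and AIL5 overlapped. By coding in place of exonic length, AIL5 and AIL6 overlapped in Ler pistils as well, AIL7 and AIL5 overlapped in ful-7 meristems, and in Col-0 meristems the means of AIL5 and AIL7 changed places, at 6.20 and 5.77 CPM per kb with overlapping libraries. AIL6 followed ANT in meristems by either length, while the order of AIL5 and AIL7 there depended on the length used.

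Between the wild types, ANT, AIL6 and AIL7 were lower in Ler pistils than in Col-0 meristems, and AIL5 did not pass the test. Fold changes come from edgeR's quasi-likelihood F test over all genes, with Benjamini-Hochberg adjusted p-values called at 0.05. ANT averaged 40.5 ± 7.42 CPM in Ler pistils and 104 ± 4.58 CPM in Col-0 meristems (SD, n = 3 each), a log2 fold change of -1.34 ± 0.14 (SE, edgeR adjusted p = 0.00017). AIL6 averaged 8.96 ± 0.432 CPM in Ler pistils and 21.4 ± 2.11 CPM in Col-0 meristems, a log2 fold change of -1.24 ± 0.11 (edgeR adjusted p = 9e-05). RBK1, which shares reads with AIL6, had a log2 fold change of -1.22 ± 0.18 (edgeR adjusted p = 0.0008) in the same comparison. AIL7 differed most of the 5, with a log2 fold change of -4.91 ± 0.30 (edgeR adjusted p = 2e-05). Its 28 counts in Ler pistils against 1379 in Col-0 meristems give a ratio per total count of 0.0329, with an exact 95% interval of 0.0218 to 0.0477. AIL5 averaged 9.33 ± 1.49 CPM in Ler pistils and 10.4 ± 0.583 CPM in Col-0 meristems, a log2 fold change of -0.14 ± 0.14 (edgeR adjusted p = 0.42). AIL1 had too few counts to be tested.

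These 3 calls of 4 members tested stand against a background in which 14614 of 24009 genes tested, 60.9%, were called between the wild types, with 29.1% lower and 31.8% higher in Ler pistils. A member called in this comparison is therefore not set apart from genes at large. The groups differ in tissue and in ecotype at once, and in bulk tissue fewer expressing cells and less RNA per cell cannot be told apart.

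In pistils no member was called between ful-1 and Ler. ANT averaged 48.9 ± 12.9 CPM in ful-1 pistils and 40.5 ± 7.42 CPM in Ler pistils, a log2 fold change of 0.29 ± 0.24 (edgeR adjusted p = 0.63). AIL5 averaged 7.40 ± 1.5 CPM in ful-1 pistils and 9.33 ± 1.49 CPM in Ler pistils, with a log2 fold change of -0.31 ± 0.23 (edgeR adjusted p = 0.59). AIL6 averaged 6.32 ± 2.06 CPM in ful-1 pistils and 8.96 ± 0.432 CPM in Ler pistils, with a log2 fold change of -0.48 ± 0.26 (edgeR adjusted p = 0.51). AIL1 and AIL7 did not pass the filter on low counts. So 0 of 3 tested members were called, 0 had an unadjusted p under 0.05, and edgeR called 44 of 23674 genes, 0.186%. DESeq2 called 0 members, and limma's voom with sample quality weights called 1, ANT, at a log2 fold change of 0.50 ± 0.12 (limma adjusted p = 0.021). DESeq2 called 3.96% of all genes it tested and voom 23.1%, with 10.5% higher in ful-1 pistils.

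Without ful-1 pistil library 3 the spread between libraries was smaller and many more genes passed, 3221 of 24068, 13.4%. The edgeR log2 fold changes were then 0.43 ± 0.16 for ANT (adjusted p = 0.13), -0.22 ± 0.16 for AIL5 (adjusted p = 0.40), -0.30 ± 0.12 for AIL6 (adjusted p = 0.15) and -1.21 ± 0.58 for AIL7 (adjusted p = 0.21). None of these 4 was called. AIL7 passed the filter here only through Ler libraries 1 and 2, with 11 and 12 counts, while ful-1 libraries 1 and 2 had 6 and 3. The filter thus favoured a negative value, and no result is drawn from it. ANT and AIL6 had unadjusted edgeR p-values of 0.034 and 0.046, where 7428 of 24068 genes tested had one under 0.05. Voom without the same library, a fit chosen after seeing the data, also called ANT, at 0.50 ± 0.12 (limma adjusted p = 0.038). That fit called 4888 of 24068 genes, 2197 of them higher in ful-1 pistils. DESeq2 without the same library called 0 members, with ANT at 0.42 ± 0.19 (DESeq2 adjusted p = 0.11). With all libraries, the CPM of the 2 groups did not overlap for 1 of the 3 members tested there, AIL6, against 26.4% of all tested genes. For the scarce members, AIL7 had 9 counts in ful-1 pistils against 28 in Ler pistils, a ratio per total count of 0.394 with an exact 95% interval of 0.164 to 0.859. AIL1 had 27 counts in ful-1 pistils against 11 in Ler pistils, a ratio of 3.01 with an interval of 1.44 to 6.72, but its libraries overlapped, with a 0 in each group.

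No member was called between ful-7 and Col-0 meristems. ANT averaged 114 ± 10.4 CPM in ful-7 meristems and 104 ± 4.58 CPM in Col-0 meristems, with a log2 fold change of 0.13 ± 0.09 (edgeR adjusted p = 0.53). AIL5 averaged 10.4 ± 0.694 CPM in ful-7 meristems and 10.4 ± 0.583 CPM in Col-0 meristems, and AIL6 averaged 21.9 ± 0.813 and 21.4 ± 2.11 CPM in those groups. Their log2 fold changes were 0.00 ± 0.11 for AIL5 (edgeR adjusted p = 0.99) and 0.03 ± 0.10 for AIL6 (edgeR adjusted p = 0.90). AIL7 averaged 10.6 ± 0.930 CPM in ful-7 meristems and 8.63 ± 0.179 CPM in Col-0 meristems, 1.23 times as high, with a log2 fold change of 0.29 ± 0.11 (edgeR adjusted p = 0.30, unadjusted p = 0.032). The count of 0 of 4 tested members was the same by edgeR, DESeq2 and voom. In edgeR 1 had an unadjusted p under 0.05, as had 3406 of 22605 genes tested. Of all genes tested, edgeR called 66 of 22605, 0.292%, DESeq2 3.59% and voom 3.75%. AIL7 was the 1 of 4 tested members whose groups did not overlap, against 22.9% of tested genes.

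The ful effect was not shown to differ between tissues for any member. The difference of the pistil and the meristem log2 fold changes was 0.14 ± 0.30 for ANT (edgeR adjusted p = 0.90), -0.33 ± 0.27 for AIL5 (edgeR adjusted p = 0.64) and -0.52 ± 0.30 for AIL6 (edgeR adjusted p = 0.51). For AIL7 it was -1.71 ± 0.58 (edgeR adjusted p = 0.26, unadjusted p = 0.013). In this contrast 0 of 4 tested members and 189 of 25154 genes, 0.751%, were called, and 3074 genes had an unadjusted edgeR p under 0.05. Without ful-1 pistil library 3 the edgeR values were 0.29 ± 0.18 for ANT (adjusted p = 0.35), -0.23 ± 0.18 for AIL5 (adjusted p = 0.49), -0.34 ± 0.15 for AIL6 (adjusted p = 0.17) and -1.52 ± 0.46 for AIL7 (adjusted p = 0.060). AIL1 also passed the filter there and was not called (edgeR adjusted p = 0.12). No fold is given for it, since its ful-7 libraries were all at 0 and the fitted value depends on the prior count. In that fit 0 of 5 members and 2599 of 25577 genes, 10.2%, were called. AIL1, AIL6 and AIL7 had unadjusted edgeR p-values of 0.022, 0.040 and 0.0070, where 6387 of 25577 genes had one under 0.05. DESeq2 and voom called no member either. The AIL7 value rests on the 9 and 28 pistil counts given above.

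**Figure D2:**
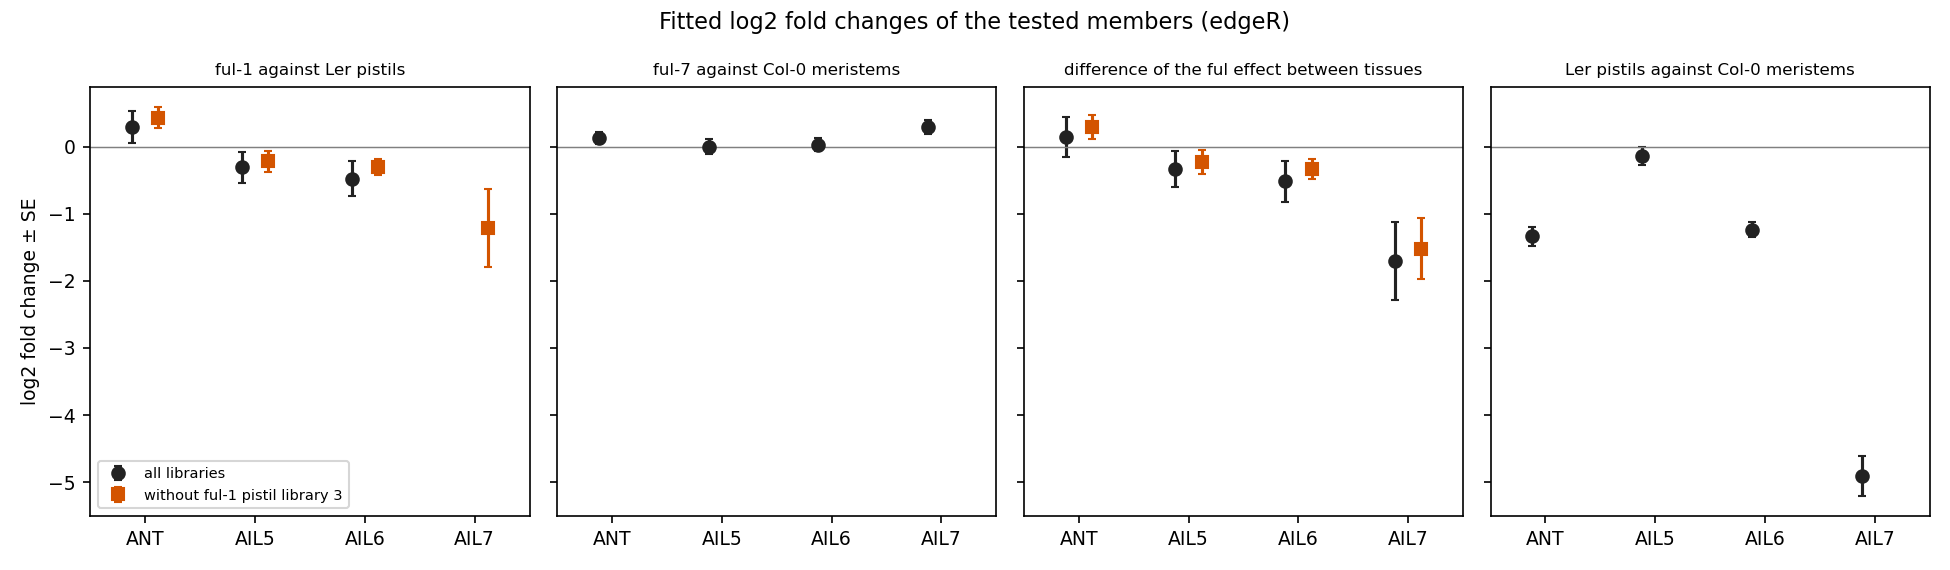
Log2 fold changes with their SE from edgeR for ANT, AIL5, AIL6 and AIL7 (AIL1 is not shown), in the 4 comparisons, from all libraries and, where pistils of ful-1 take part, without ful-1 pistil library 3. AIL7, AIL6 and ANT lie below 0 between the wild types, and their values in the other comparisons lie closer to 0. Among these, AIL7 is farthest below 0 where ful-1 pistils take part. AIL5 lies farther from 0 where ful-1 pistils take part than between the wild types.

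Ratios between members within a library do not depend on how libraries are scaled. ANT took a larger share of the summed level per kb in ful-1 pistils than in Ler pistils. The share was 81.4%, 80.5% and 81.6% in ful-1 pistils, against 72.4%, 74.7% and 72.0% in Ler pistils, a difference of 8.15 percentage points. ful-1 pistil library 3, which stood apart in other measures, was close to the other ful-1 libraries in this share. AIL5 took 10.8 ± 0.828% in ful-1 pistils and 14.6 ± 0.320% in Ler pistils, and AIL6 took 7.23 ± 0.536% and 11.4 ± 1.22% in those groups (SD, n = 3 each). The groups did not overlap for ANT, AIL5, AIL6 or AIL7, the last at 0.127 ± 0.113% and 0.558 ± 0.218% on few counts. For each of these the exact two-sided permutation p was 0.10, the smallest that 3 against 3 libraries can give. After Benjamini-Hochberg adjustment over 24 comparisons of shares and ratios it was 0.20, so none passes. In CPM, 26.4% of all tested genes did not overlap between ful-1 and Ler pistils, and no such background was computed for shares.

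The shares of a library add up to a fixed total, so a larger ANT share goes with smaller shares of the other members. The count ratios below need no length, but they restate these shares from the same counts and are not a separate result. There were 7.32, 7.76 and 8.51 ANT counts for each AIL6 count in ful-1 pistils, against 4.29, 5.18 and 4.04 in Ler pistils. The exact 95% interval of library 3 of ful-1, the least deep, was 6.10 to 12.2, and the highest Ler library had an interval of 4.59 to 5.85. There were 6.97, 6.63 and 6.04 ANT counts for each AIL5 count in ful-1 pistils, against 4.39, 4.43 and 4.18 in Ler pistils. AIL6 and AIL5 did not separate from each other: their count ratio was 0.953, 0.854 and 0.709 in ful-1 pistils, against 1.02, 0.856 and 1.03 in Ler pistils. Pistil markers, which include ovule genes, had higher sums in ful-1 pistils (above). With all libraries edgeR called 0 of 7, while 5 had an unadjusted edgeR p under 0.05, against 2429 of 23674 genes. Their median log2 fold change in that fit was 0.90, against 0.01 for all genes. The part of these markers in the ratios was not tested.

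In meristems ANT took 75.9 ± 1.23% of the summed level in ful-7 and 75.5 ± 1.26% in Col-0, with overlapping libraries (exact permutation p = 0.50). AIL7 took 7.84 ± 0.165% in ful-7 meristems and 6.96 ± 0.254% in Col-0 meristems, 0.872 points more, with no overlap (exact permutation p = 0.10, 0.20 after adjustment). There were 4.91, 5.77 and 4.91 ANT counts for each AIL6 count in ful-7 meristems, against 4.50, 4.64 and 5.49 in Col-0 meristems, so the ratio seen in ful-1 pistils was not seen there. The difference between tissues in this ratio was not tested. In the wild types, AIL5 took 14.6% in Ler pistils and 6.56% in Col-0 meristems, and AIL7 took 0.558% and 6.96%. ANT took 73.0% in Ler pistils and 75.5% in Col-0 meristems, and AIL6 took 11.4% and 10.9%, with overlapping libraries for both. The summed level of the 5 was 28.0 ± 7.46 CPM per kb in ful-1 pistils and 25.7 ± 4.16 in Ler pistils, and 69.6 ± 5.30 in ful-7 meristems and 63.8 ± 2.31 in Col-0 meristems.

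The other genes of the ANT lineage were the PLETHORA genes PLT1 and PLT2, BBM, and the WRINKLED genes, which regulate lipid synthesis. PLT1, PLT2 and BBM averaged under 0.3 CPM in every group. Of the 6, 3 were tested between the wild types, and WRI3 rose in Ler pistils at 11.6 ± 2.37 CPM, against 5.35 ± 0.173 CPM in Col-0 meristems (log2 fold change 1.13 ± 0.17, edgeR adjusted p = 0.001). None of 3 was called in pistils, none of 4 without ful-1 pistil library 3 and none of 4 in meristems, with 0 at an unadjusted p under 0.05 in each and 0 by DESeq2 and voom with all libraries. WRI1 had the lowest p in these, at 0.89 ± 0.46, 0.18 ± 0.09 and -0.19 ± 0.10.

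A list of 21 regulators and targets in flower primordia held genes upstream of ANT and AIL6, such as MONOPTEROS (MP) and the chromatin remodellers SYD and BRM, and genes of organ identity and polarity. Between the wild types 3 rose and 9 fell in Ler pistils, with a median log2 fold change of -0.27 against 0.01 for all genes. LFY, the master regulator of floral fate, was at -8.15 ± 0.20, the boundary gene CUC2 at -2.11 ± 0.17, the auxin response factor ETT at -1.92 ± 0.17 and the petal gene RBE at 2.51 ± 0.31. In pistils 0 of 20 passed edgeR's threshold with all libraries (0 at an unadjusted p under 0.05), and YAB3, an abaxial polarity gene, had the lowest p at -0.60 ± 0.26. Without ful-1 pistil library 3, 4 of 20 rose and none fell, with a median of 0.22 against 0.01 for all genes, where 5.12% of all genes tested rose. They were SYD (1.03 ± 0.11), AP3 (0.87 ± 0.10), a B-class organ identity gene, ARF4 (0.90 ± 0.20) and BRM (0.53 ± 0.09). In edgeR, MP was at 0.07 ± 0.37 with all libraries (adjusted p = 0.94) and at 0.38 ± 0.11 without that library (adjusted p = 0.081). It was called in neither edgeR fit. Voom called it at 0.44 ± 0.12 with all libraries (limma adjusted p = 0.037) and at 0.45 ± 0.11 without that library (limma adjusted p = 0.038). In the edgeR fit without ful-1 pistil library 3, markers of other cells moved as well. Of the green tissue markers 3 of 4 fell in ful-1 pistils, RBCS1A (-0.94 ± 0.12), RCA (-0.81 ± 0.11) and LHCB1.3 (-0.68 ± 0.12), with a median of -0.75. Of all genes in this fit, 1988 of 24068 fell. The meristem marker CLV1 fell (-0.88 ± 0.11), as 1 of 5 tested, 5 of 7 pistil markers rose, and 0 of 3 tested anther and pollen markers passed (0 at an unadjusted p under 0.05). Their part in the list changes was not tested. In meristems 0 of 21 passed and 2 had an unadjusted p under 0.05. LFY had the lowest p there, at 19.6 ± 2.44 CPM in ful-7 meristems and 26.6 ± 1.92 CPM in Col-0 meristems (log2 fold change -0.44 ± 0.11, edgeR adjusted p = 0.20). With all libraries, DESeq2 called 0 of this list in pistils and voom 7, all higher in ful-1, and both called 1 in meristems, LFY. These counts and those of voom and DESeq2 for the lists below stand against 23.1% and 3.96% of all genes in pistils and 3.75% and 3.59% in meristems. List genes at an unadjusted edgeR p under 0.05 stand against 2429 of 23674 genes in pistils and 3406 of 22605 in meristems. In every list, edgeR calls between the wild types stand against 31.8% of all genes higher and 29.1% lower in Ler pistils. Those in pistils without ful-1 pistil library 3 stand against 5.12% of all genes higher in ful-1.

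Genes of organ growth and cell division include ARGOS, known to act upstream of ANT, and the D-type cyclin CYCD3;1, whose expression ANT is known to sustain. Between the wild types 3 of 14 rose and 8 fell in Ler pistils, with a median of -0.59. The coactivator GIF1 was at -2.92 ± 0.10, the cytochrome KLU at -5.86 ± 0.27, and the growth-regulating factors GRF1 and GRF5 at -2.15 ± 0.11 and -3.45 ± 0.20. In ful-1 against Ler pistils 0 of 13 passed with all libraries (2 at an unadjusted p under 0.05), and CYCD3;3 had the lowest p at 0.60 ± 0.22. Without ful-1 pistil library 3, 3 of 13 rose, CYCD3;3 (0.76 ± 0.07), the growth repressor BB (0.73 ± 0.08) and GIF1 (0.45 ± 0.09), with a median of 0.07. In meristems 0 of 14 passed and 5 had an unadjusted p under 0.05, led by GRF1 at -0.35 ± 0.08 (edgeR adjusted p = 0.18). With all libraries, DESeq2 called 0 in pistils and voom 4, with 3 higher and 1 lower in ful-1. In meristems DESeq2 called 4, with 2 higher and 2 lower in ful-7, and voom 2, GIF1 and GRF1, both lower.

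The ovule and integument list follows the tissue where ANT is known to be required. In it 7 of 14 rose and 6 fell in Ler pistils against Col-0 meristems, among them the ovule identity gene STK (9.20 ± 0.34), the integument genes BEL1 (4.05 ± 0.17) and INO (10.07 ± 0.43), and TT16 (8.03 ± 0.52), which acts in the seed coat. In pistils 0 of 12 passed with all libraries (2 at an unadjusted p under 0.05). INO had the lowest p, at 62.0 ± 30.8 CPM in ful-1 pistils and 23.0 ± 2.59 CPM in Ler pistils (log2 fold change 1.5 ± 0.42, edgeR adjusted p = 0.33). Without ful-1 pistil library 3, 4 of 12 rose, BEL1 (0.99 ± 0.11), INO (0.90 ± 0.11), STK (0.82 ± 0.11) and SUP (0.73 ± 0.14), with a median of 0.45 against 0.01 for all genes. In meristems 0 of 12 passed and 1 had an unadjusted p under 0.05, UCN, a kinase that restrains integument growth, at -0.67 ± 0.18 (edgeR adjusted p = 0.21). With all libraries, DESeq2 called 1 in pistils, INO, and voom 5, all higher in ful-1, while in meristems DESeq2 called 1, UCN, and voom 0.

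The carpel margin gives rise to ovules, septum and style. Of its listed genes 6 of 10 rose and 1 fell in Ler pistils against Col-0 meristems, with a median of 2.28, among them NGA1 (3.49 ± 0.23), NGA2 (3.82 ± 0.30) and HEC3 (4.71 ± 0.43), while STY2 fell (-1.58 ± 0.21). With all libraries 0 of 10 passed in pistils (2 at an unadjusted p under 0.05), and SPT, a bHLH regulator of carpel fusion, had the lowest p. SPT averaged 44.6 ± 16.6 CPM in ful-1 pistils and 21.9 ± 0.888 CPM in Ler pistils (log2 fold change 1.03 ± 0.28, edgeR adjusted p = 0.31). Without ful-1 pistil library 3, 3 of 10 rose, SPT (1.26 ± 0.09), HEC3 (1.23 ± 0.23) and NGA2 (0.40 ± 0.09), with a median of 0.55. In meristems 0 of 11 passed, 3 had an unadjusted p under 0.05, and HEC3 had the lowest p at 1.78 ± 0.52 (edgeR adjusted p = 0.23) from levels of 0.305 ± 0.0644 CPM in ful-7 meristems and 0.0838 ± 0.0444 CPM in Col-0 meristems. With all libraries, DESeq2 called 2 in pistils, SPT and HEC3, and voom 6, all higher in ful-1, while in meristems DESeq2 called 0 and voom 1, STY2, lower in ful-7. The pistil markers given above share SPT, INO and STK with these 2 lists.

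Genes with the pattern most like each member across the 12 libraries were found by Pearson correlation of log2(CPM + 1) among 16804 genes. These values are a description, since the 12 points fall into pistils and meristems that differ in tissue and ecotype, and any gene that follows that split correlates. For ANT they were AGB1 (0.986), the G protein beta subunit, RLP29 (0.985) and BAT1 (0.984). For AIL5 they were PRMT4A (0.959), an arginine methyltransferase, GLIP5 (0.955) and AT1G65030 (0.955). For AIL6 they were the long non-coding RNA AT2G08795 (0.994), Tic32-IVa (0.993) and AT5G56220 (0.992). For AIL7 they were the homeodomain genes HB25 (0.998) and BLH6 (0.997) and the pseudogene AT2G06950 (0.997). AIL5, the member with the least difference between tissues, had the lowest values. When ful-1 pistil library 3 was left out, the genes named for ANT ranked 17, 21 and 20, those for AIL5 6, 13 and 10, those for AIL6 11, 39 and 60 and those for AIL7 4, 5 and 1, so most of the names depend on that library. The correlations of AIL5 were then 0.891, 0.877 and 0.885, and those of the other members lay between 0.984 and 0.998.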

How the data were processed

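RNA was measured in 12 libraries. Per the labels' protocols, libraries were made with a stranded Illumina kit after mRNA enrichment and sequenced as pairs of 150 bases. Per the submitters' processing notes, STAR 2.7.0b, featureCounts 1.6.0 and TAIR10 were used. How reads were trimmed, and whether strand was used in counting, is not given in the sources used here. The deposited table holds raw counts per gene as whole numbers, with library totals of 13191949 to 83606724. Its columns show the group but no replicate number, so libraries are numbered in table order within a group. The labels call the samples replicates without saying that they came from separate cultures, so a p-value here measures spread among these samples, which may be technical.

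Genes were kept by filterByExpr, scaled by TMM and tested with edgeR 4.0.16 (quasi-likelihood F test, Benjamini-Hochberg at 0.05) in R 4.3.3. The SE was taken from the log2 fold change and its F statistic. Pistil and meristem comparisons and the wild-type comparison used 6 libraries each, the difference between tissues all 12. CPM use the TMM factors of all 12 libraries. The edgeR tests were tested on simulated data. Their simulated spread was smaller than that of every fit with all libraries, slightly for meristems and the wild types and much for pistils and the difference. So the simulation covers none of these fits at its own spread. Alternatives were DESeq2 1.42.0, voom in limma 3.58.1, other filters and scalings, and omission of each library; voom and DESeq2 without ful-1 pistil library 3 were chosen after seeing the data. Exact permutation tests used scipy 1.17.1, and sequences were compared with blastn 2.17.0 and mafft 7.526; no stretch of at least 100 bases at 95% identity was found elsewhere for any of the 5 genes.

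Sequences, lengths and names came from the TAIR10.1 genome and its RefSeq annotation, whose 5 nuclear chromosomes have the lengths of TAIR10 and which matched 36632 of 36917 gene codes. The members and lists were chosen with earlier results of these data known. Named genes were the 5 members, from each list up to 4 called genes in order of p (where none was called, the top 1), FUL, and 3 genes most like each member of at least 1 CPM; MP and RBK1 were added after their values were seen. Marker lists of other cells gave sums of 425 to 952 CPM for anther and pollen in ful-1 pistils, 409 to 1309 in Ler pistils, 24.2 to 26.2 in ful-7 meristems and 10.6 to 46.5 in Col-0 meristems. Green tissue gave 7548 to 33237, 12459.9 to 13283, 10695 to 11565 and 7876 to 12007 CPM in the same groups, the highest in ful-1 pistil library 3. In Ler pistils the anther and pollen sums came mainly from VGD1, VGDH1 and PPME1, at means of 551, 244 and 46.6 CPM. AMS and A9 were lower in Ler pistils than in Col-0 meristems (log2 fold changes -5.19 ± 0.28 and -4.41 ± 0.87). DYT1 had 0 CPM in Ler pistils and averaged 0.588 CPM in Col-0 meristems.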

Additional observations from a re-analysis of the deposited data

How the results depend on the processing

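The number of members called kept to 3 between the wild types and to 0 in meristems and in the difference between tissues under every alternative fitted. In pistils it was 0 except with voom, alone and without ful-1 pistil library 3, where it was 1. Counts of all genes called moved much more. In pistils they were 44 in edgeR, 927 with DESeq2, 5458 with voom, 647 in a fit of all 12 libraries, and, without ful-1 pistil library 3, 4888 with voom and 4352 with DESeq2; leaving out each library in turn gave 0 to 3221. In meristems they were 66 in edgeR, 812 with DESeq2, 847 with voom, 153 with no filter and 26 in a fit of all 12 libraries, and 10 to 93 with each library left out. For the difference they were 189 in edgeR, 1236 with DESeq2 and 5061 with voom, 4906 and 3905 with voom and DESeq2 without ful-1 pistil library 3, and 57 to 2599 with each library left out. Between the wild types leaving out each library gave 12476 to 15705. The cause of these shifts was not tested.

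With coding in place of exonic length, the level of ANT over that of AIL6 was 8.56 in ful-1 pistils, 4.90 in Ler pistils, 5.66 in ful-7 meristems and 5.31 in Col-0 meristems, in place of 11.3, 6.45, 7.45 and 6.99; AIL6 has the longer untranslated part. The same change of length reordered AIL5 and AIL7 in Col-0 meristems. Leaving out each library moved the ANT share difference between 7.65 and 9 points in pistils and between -0.367 and 1.06 points in meristems, where it turned to -0.107 without Col-0 library 2 and -0.367 without ful-7 library 2. Log2 fold changes close to 0 changed sign for AIL5 in meristems (-0.05 to 0.04 with each library left out, -0.04 without Col-0 library 3 and -0.05 without ful-7 library 1), AIL6 in meristems (-0.04 to 0.11, -0.04 without Col-0 library 3) and the ANT difference (-0.01 to 0.29, -0.01 without ful-1 library 1). No paired analysis was possible because the columns of the count table carry no replicate numbers. Depth limits AIL1 and AIL7 in pistils, which rest on at most 18 counts in a library.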
